A study of Oryza sativa Indica Group with 8 samples.

Results

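The genes described here are 10 factors of light signalling in rice, chosen by locus identifier: the PHYTOCHROME INTERACTING FACTOR-LIKE (PIL) genes OsPIL1/PIL13, OsPIL11, OsPIL14, OsPIL15 and OsPIL16, the HY5-like genes OsbZIP48, OsbZIP01 and OsbZIP18, the ubiquitin ligase gene COP1/PPS, and OsRUP. Of the 10, 9 were found among the 35961 loci of the expression tables and were analysed. OsPIL15 (LOC_Os01g18290) was not analysed here. RNA-seq libraries from leaves were compared between OE5, a single transgenic line that overexpresses OsPRR37, and GL, the variety Guangluai 4 that was its recipient parent, with 2 biological replicates each. GL itself carries a natural loss-of-function allele of OsPRR37, a clock gene that acts as a transcriptional repressor. Plants of both genotypes were sampled 15 days after germination, from a chamber held at 28°C in a cycle of 14 h light and 10 h dark. The topmost expanded leaves were taken at 9:00, 3 h after the lights came on, so each value is a level at a single time of day. The promoter of the transgene is not given in the sources used here, and the overexpressed gene was not checked because no source used here pairs it with a locus identifier.

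Phytochrome interacting factors are basic helix-loop-helix transcription factors that bind the active form of phytochrome. In Arabidopsis they promote elongation growth in the dark and most of them are degraded in the light. HY5 is a bZIP transcription factor that promotes photomorphogenesis, and COP1 is a RING-type E3 ubiquitin ligase that marks HY5 for degradation in the dark. In Arabidopsis, RUP proteins are WD40-repeat repressors of UV-B signalling that return the photoreceptor UVR8 to its inactive form, and their genes are targets of HY5. Members of both transcription factor families recognise G-box elements in promoters.

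At this hour the 9 genes did not move as a group. OsRUP was higher in OE5, OsPIL11 and OsbZIP48 were lower, and the other 6 genes passed no test. A gene was called when edgeR's quasi-likelihood test gave a Benjamini-Hochberg adjusted p under 0.05 over all tested loci together with a fold change over 1.5. By this rule 3 of the 9 genes were called (33.3%), against 653 of the 19280 tested loci (3.39%). OsRUP was called higher in OE5, as were 2.11% of the tested loci, and OsPIL11 and OsbZIP48 were called lower, as were 1.28%. OsRUP is on the study's own list of genes that changed both in expression, in these libraries, and in DNA methylation. Its call is therefore not independent of how the list of genes described here was drawn up. Without it, 2 of 8 genes were called. All 9 genes passed the filter on low expression, and all 9 also passed it in each genotype separately. The median log2 fold change of the 9 genes was -0.09 and that of all tested loci was -0.01. The median size of the change regardless of sign was 0.32 for the 9 genes and 0.15 for all tested loci. Both medians of the 9 genes include OsRUP, so they too depend on how the list was drawn up.

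**Figure D1:**
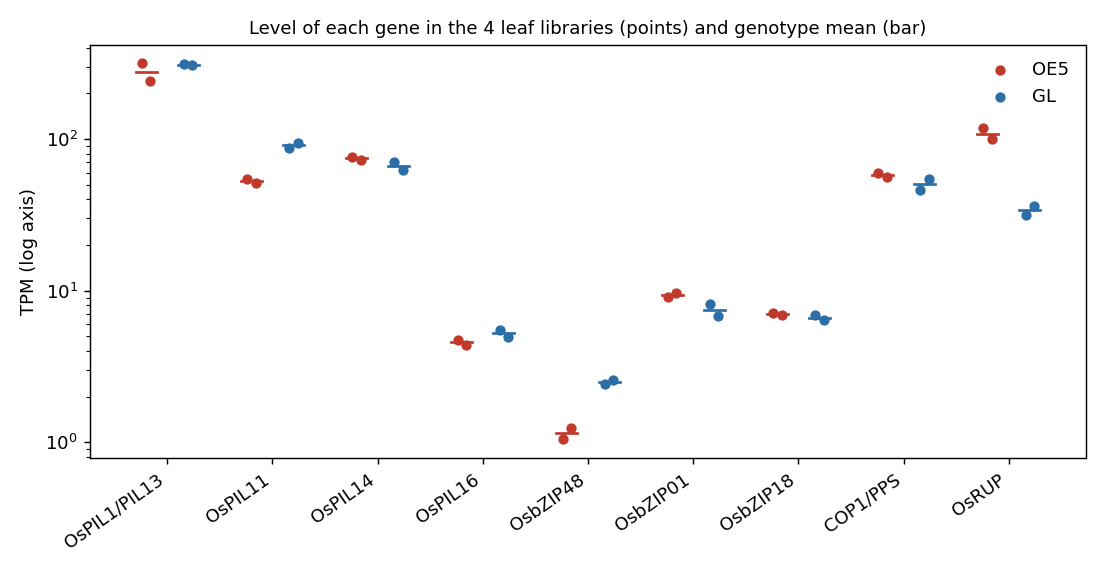
Level of the 9 genes in each library, in TPM on a log axis, with OE5 in red and GL in blue; points are single libraries and bars are genotype means. The OE5 points of OsRUP lie above the GL points, those of OsPIL11 and OsbZIP48 lie below, and OsPIL1/PIL13 is the most abundant gene in both genotypes.

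The depth was similar in the 4 libraries, with 43423801 to 48284992 counts on genes. How the mates of a read pair were counted is not stated in the sources used here. In each library the counts exceed the mapped read pairs that the paper reports, so at least some pairs were counted more than once. Counts were divided by the relative effective library size to give normalized counts, and levels of different genes were compared as TPM, which are scaled to gene length. The identifiers are those of the MSU v7.0 annotation, which number loci along each chromosome. Strand, overlap and multi-mapped reads are not described for the counting, so reads shared between related genes of the PIL family or with overlapping loci cannot be separated. In whole leaves, less RNA per cell cannot be told apart from fewer cells that express a gene.

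The measured PIL genes were dominated by OsPIL1/PIL13 (LOC_Os03g56950, chromosome 3), which in rice promotes internode elongation. It had 315 and 239 TPM in OE5-1 and OE5-2, against 312 and 306 TPM in GL-1 and GL-2. These levels placed it at percentile 98.0 of the tested loci in OE5 and 98.3 in GL. A single OE5 library stood apart from the other 3 libraries, which lay close together. As normalized counts the values were 17310 and 13033 in OE5 and 18585 and 19240 in GL, a log2 fold change of -0.32 (SE, the standard error, 0.15; edgeR adjusted p = 0.373) with a 95% interval from -0.66 to 0.03. The difference therefore did not pass the test, and its size rested on OE5-2: the log2 fold change was -0.13 without OE5-2 and -0.54 without OE5-1. The replicates of OE5 varied by 19.9% (SD as a share of the mean), and those of GL by 2.45%. For OE5, counting error alone would give 0.780% if each count were an independent read.

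OsPIL11 (LOC_Os12g41650, chromosome 12) was the measured PIL gene that fell. It had 54.3 and 51.3 TPM in OE5, against 87.4 and 93.8 TPM in GL. Both OE5 libraries lay below both GL libraries, and the gap was larger than the spread within either genotype. The normalized counts were 3809 and 3562 in OE5 and 6637 and 7517 in GL, with means of 3685 ± 174 (SD, n = 2) and 7077 ± 623 (SD, n = 2). The log2 fold change was -0.94 (SE 0.12; edgeR adjusted p = 0.00292), so the level in OE5 was 0.521 of that in GL, with a 95% interval from 0.433 to 0.626. OsPIL11 had the 123rd smallest p of all tested loci. Without OE5-2 the log2 fold change was -0.89 and the call was lost. Without OE5-1 it was -0.99 and the call held only narrowly. The call also held in the other refits.

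OsPIL14 (LOC_Os07g05010, chromosome 7), whose product in rice interacts with the DELLA protein SLR1, had 76.5 and 72.6 TPM in OE5 and 70.2 and 62.0 TPM in GL. On the TMM scale the genotypes overlapped, with 4538 and 4261 normalized counts in OE5 and 4507 and 4205 in GL. The log2 fold change was 0.01 (SE 0.11; edgeR adjusted p = 0.972), and the 95% interval of the fold change, from 0.850 to 1.20, does not reach a change of 1.5-fold in either direction. OsPIL16 (LOC_Os05g04740, chromosome 5) was the least abundant of the measured PIL genes. It had 4.73 and 4.39 TPM in OE5 and 5.53 and 4.92 TPM in GL, from 168 and 159 counts in OE5 and 184 and 168 counts in GL. Its log2 fold change of -0.35 (SE 0.19; edgeR adjusted p = 0.448) had a 95% interval from -0.78 to 0.08, so the interval holds both no change and a fall beyond 1.5-fold.

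The 4 measured PIL genes together reached 450 and 368 TPM in OE5 and 475 and 467 TPM in GL. The mean was 409 ± 58.2 TPM (SD, n = 2) in OE5 and 471 ± 6.01 TPM (SD, n = 2) in GL, a difference of -61.9 TPM. The p of a two-sided exact permutation test was 0.333 and cannot be smaller with 2 libraries a side, so this test cannot reach a p under 0.05 for a sum or a ratio of genes. On the log2 scale the difference was -0.21 in TPM, from -0.36 to -0.06 with 1 library left out, and -0.39 when TMM-normalized values were summed, so its size depended on the scaling. By library, most of the difference in TPM came from the same OE5 library that stood apart for OsPIL1/PIL13. By gene, the mean was 52.8 TPM in OE5 and 90.6 TPM in GL for OsPIL11, which fell in both OE5 libraries. It was 277 and 309 TPM for OsPIL1/PIL13 and 4.56 and 5.23 TPM for OsPIL16. OsPIL14 went the other way, with 74.6 and 66.1 TPM.

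Shares within a library do not depend on how libraries are scaled to each other. OsPIL11 made up 12.1% and 14.0% of the summed TPM of the measured PIL genes in OE5, against 18.4% and 20.1% in GL. OsPIL14 made up 17.0% and 19.7% in OE5 and 14.8% and 13.3% in GL. The order of the pair was thus opposite in the genotypes, with OsPIL14 above OsPIL11 in both OE5 libraries and below it in both GL libraries. The ratio of OsPIL11 to OsPIL14 in TPM was 0.710 and 0.707 in OE5 and 1.25 and 1.51 in GL (two-sided exact permutation p = 0.333, the smallest possible). OsPIL14 itself passed no test, with a log2 fold change of 0.01 from edgeR. This ratio and the share of OsPIL11 follow in large part from the lower level of OsPIL11 and are no further evidence of a change. The share of OsPIL1/PIL13 was 69.9% and 65.1% in OE5 and 65.7% and 65.6% in GL, and that of OsPIL16 was 1.05% and 1.19% in OE5 and 1.16% and 1.06% in GL. For both of these genes the genotypes overlapped.

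**Figure D2:**
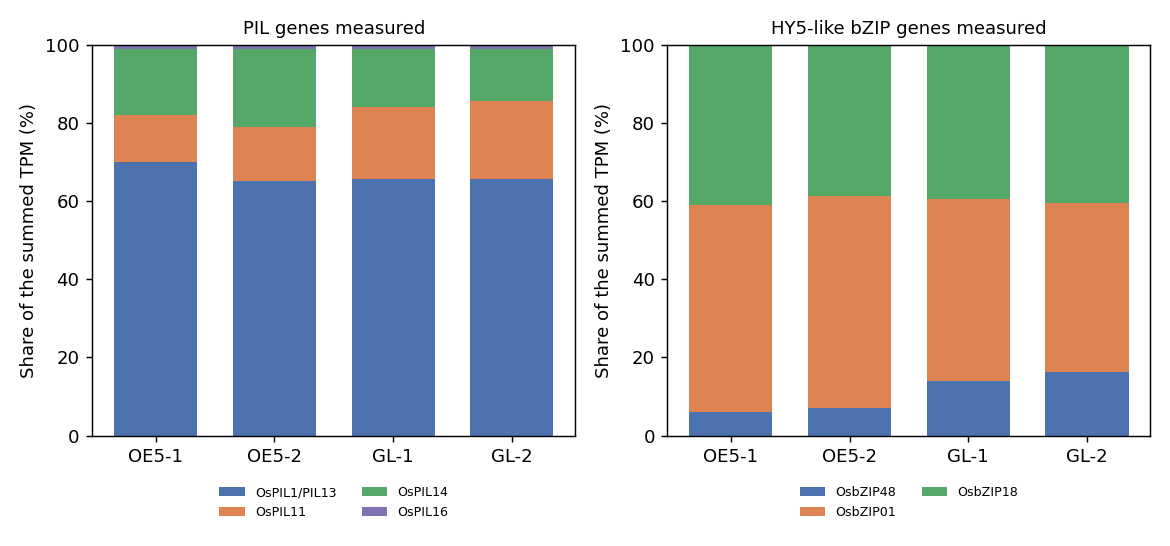
Share of each gene in the summed TPM of its family, in percent, for each library (OE5 left, GL right), for the 4 measured PIL genes and the 3 HY5-like bZIP genes. OsPIL11 takes 12.1% to 14.0% of the PIL total in OE5 and 18.4% to 20.1% in GL, and OsbZIP48 takes 6.09% to 6.98% of the bZIP total in OE5 and 13.9% to 16.4% in GL.

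OsbZIP48 (LOC_Os06g39960, chromosome 6), a rice HY5-like gene whose overexpression shortens the plant, was the other gene that fell. It had 1.05 and 1.24 TPM in OE5 and 2.43 and 2.58 TPM in GL, the lowest levels of the 9 genes in either genotype. The counts were 67 and 81 in OE5 and 145 and 158 in GL, and the genotypes did not overlap. Normalized counts averaged 68.0 ± 7.61 (SD, n = 2) in OE5 and 166 ± 13.4 (SD, n = 2) in GL, with a log2 fold change of -1.26 (SE 0.23; edgeR adjusted p = 0.0178). The level in OE5 was 0.417 of that in GL, with a 95% interval from 0.291 to 0.597. The spread of the OE5 replicates was 11.2%, and counting error would be 11.6% if each count were an independent read. As some read pairs were counted more than once, the true counting error is larger than this. This call was the least firm of the 3. It was lost without OE5-1 (log2 fold change -1.16, adjusted p = 0.180) and without OE5-2 (-1.38, adjusted p = 0.0998), and with limma-trend on log2(TPM + 1), where the pseudocount of 1 is close to the OE5 level itself (-0.71, adjusted p = 0.0656), or with a pseudocount of 0.1 (-1.06, adjusted p = 0.0722). DESeq2 called it with an adjusted p of 0.00350.

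The other HY5-like genes passed no test. OsbZIP01 (LOC_Os01g07880, chromosome 1) had 9.13 and 9.68 TPM in OE5 and 8.14 and 6.76 TPM in GL, from 146 and 158 counts in OE5 and 122 and 104 counts in GL. Its log2 fold change was 0.17 (SE 0.21; edgeR adjusted p = 0.802), and the 95% interval of the fold change ran from 0.810 to 1.57. OsbZIP18 (LOC_Os02g10860, chromosome 2), which in rice has been linked to the synthesis of branched-chain amino acids, had 7.08 and 6.89 TPM in OE5 and 6.89 and 6.37 TPM in GL. Its log2 fold change was -0.09 (SE 0.14; edgeR adjusted p = 0.863), with a 95% interval of the fold change from 0.755 to 1.18.

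The 3 bZIP genes summed to 17.3 and 17.8 TPM in OE5 and 17.5 and 15.7 TPM in GL, and these sums overlapped. Within the sum, OsbZIP48 held 6.09% and 6.98% in OE5 and 13.9% and 16.4% in GL, while OsbZIP01 held 52.9% and 54.3% in OE5 and 46.6% and 43.1% in GL. OsbZIP18 held 41.0% and 38.7% in OE5 and 39.5% and 40.5% in GL, and these shares overlapped. The ratio of OsbZIP01 to OsbZIP48 in TPM was 8.69 and 7.78 in OE5 and 3.36 and 2.63 in GL (two-sided exact permutation p = 0.333, the smallest possible). These shares and ratios follow in large part from the lower level of OsbZIP48 and are no further evidence of a change.

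COP1/PPS (LOC_Os02g53140, chromosome 2), the ubiquitin ligase gene that in rice also affects the change from juvenile to adult growth, had 59.6 and 55.8 TPM in OE5 and 46.2 and 54.3 TPM in GL. As normalized counts the genotypes overlapped, with 5366 and 4974 in OE5 and 4503 and 5590 in GL. The log2 fold change was 0.04 (SE 0.13; edgeR adjusted p = 0.942), and the 95% interval of the fold change was from 0.835 to 1.26. Its GL replicates differed the most of the 9 genes, with an SD of 15.2% of the mean. Counting error was 1.47% with each count taken as an independent read.

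OsRUP (LOC_Os02g02380, chromosome 2) had the largest change of the 9 genes. It had 117 and 99.6 TPM in OE5 and 31.6 and 36.2 TPM in GL, from 2478 and 2146 counts in OE5 and 624 and 735 counts in GL. Even the lower OE5 library was far above the higher GL library. Normalized counts averaged 2130 ± 263 (SD, n = 2) in OE5 and 745 ± 101 (SD, n = 2) in GL, a fold change of 2.85 with a 95% interval from 2.30 to 3.53 (edgeR adjusted p = 0.000402). OsRUP had the 58th smallest p of all tested loci and a change larger in size than that of 98.5% of them. It was called under each of the 14 alternatives that refitted the data, with log2 fold changes from 1.38 to 1.67 and adjusted p-values of at most 0.00465.

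**Figure D3:**
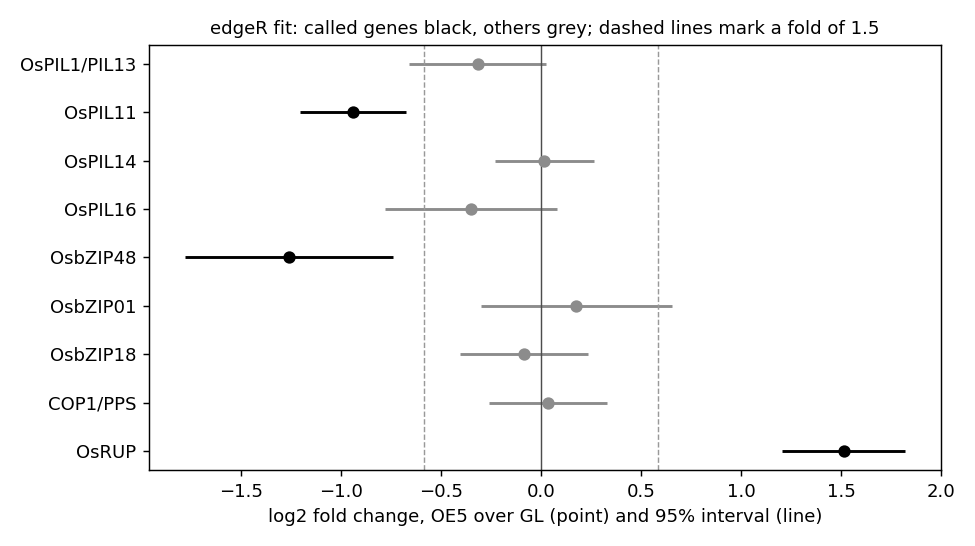
Log2 fold change of each gene, OE5 over GL, from edgeR, with its 95% interval; called genes are black, the others grey, and dashed lines mark a fold change of 1.5. OsRUP (1.51), OsPIL11 (-0.94) and OsbZIP48 (-1.26) have intervals wholly outside the dashed lines, and the intervals of the other 6 genes include 0.

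The order of levels differed between the genotypes mainly through OsRUP and OsPIL11. In OE5, OsPIL1/PIL13 was followed by OsRUP (mean 109 TPM), OsPIL14 (74.6 TPM), COP1/PPS (57.7 TPM) and OsPIL11 (52.8 TPM). In GL, OsPIL1/PIL13 was followed by OsPIL11 (mean 90.6 TPM), OsPIL14 (66.1 TPM), COP1/PPS (50.3 TPM) and OsRUP (33.9 TPM). OsRUP was thus at rank 2 of the 9 in OE5 and rank 5 in GL, and OsPIL11 was at rank 5 in OE5 and rank 2 in GL. Below them, OsbZIP01, OsbZIP18, OsPIL16 and OsbZIP48 came in the same order in both genotypes. Between neighbours in this order the library ranges did not overlap, except those of OsbZIP01 and OsbZIP18 in GL.

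Ratios of OsRUP to COP1/PPS and to OsbZIP48 can be compared within single libraries. The ratio of OsRUP to COP1/PPS in TPM was 1.97 and 1.78 in OE5 and 0.683 and 0.667 in GL. The ratio of OsRUP to OsbZIP48 was 112 and 80.1 in OE5 and 13.0 and 14.1 in GL. In both cases the 2 genotypes lay well apart, with an exact permutation p of 0.333, the smallest possible. Both ratios follow in large part from the higher level of OsRUP, and the second also from the lower level of OsbZIP48. They are no further evidence of a change.

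The separation of genotypes alone is a weak criterion with 2 libraries each. In 7 of the 9 genes (77.8%), the normalized counts of the genotypes did not overlap, and the same was true of 44.6% of all tested loci. The 4 genes among these 7 that were not called were OsPIL1/PIL13, OsPIL16, OsbZIP01 and OsbZIP18. As TPM, the genotypes also did not overlap in 7 genes, but OsPIL14 and COP1/PPS took the place of OsPIL1/PIL13 and OsbZIP18. On the log2(TPM + 1) scale without TMM normalization the median tested locus was 0.14 higher in OE5, and this shift is larger than the change of OsPIL14, OsbZIP18 or COP1/PPS from edgeR.

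**Figure D4:**
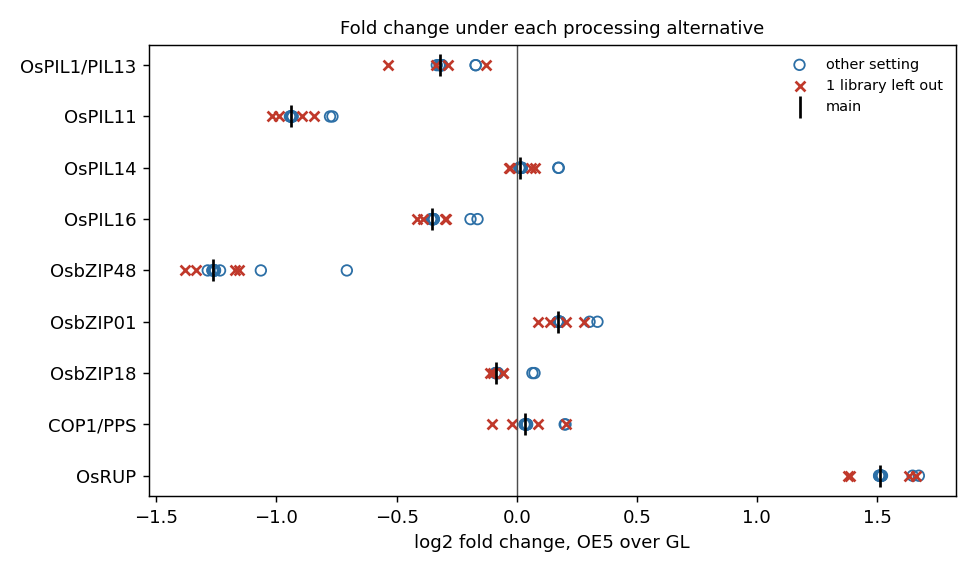
Log2 fold change of each gene, OE5 over GL, in the main fit (black tick), with 1 library left out (red crosses) and under the other alternatives (blue circles). OsRUP stays between 1.38 and 1.67 and OsPIL11 between -1.02 and -0.77, whereas OsPIL14, OsbZIP18 and COP1/PPS have points on both sides of 0.

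Most of the loci next to the called genes in the order of identifiers were not called. Of the 10 tested loci around OsbZIP48 (5 on each side), 0 were called by edgeR and 0 by DESeq2, with log2 fold changes between -0.72 and 0.16. In edgeR's test 2 of them had an unadjusted p under 0.05, and both were lower in OE5, as OsbZIP48 was (-0.68 and -0.27). Of the 10 around OsRUP, 2 were called, where 3.39% of all tested loci were. Their log2 fold changes of 0.80 and 0.95 had the direction of OsRUP but were smaller. The tested locus directly on each side of OsRUP was not called (-0.10 and 0.24). Of the 10 around OsPIL11, 1 was called, LOC_Os12g41560, with a log2 fold change of 1.53, opposite in direction to OsPIL11.

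Some loci had values most like those of the called genes, measured as the smallest distance between centred log2 normalized counts over the 4 libraries. For OsRUP they were LOC_Os10g10130 (distance 0.0716, log2 fold change 1.54) and the same LOC_Os12g41560 (distance 0.0971). For OsPIL11 the nearest was LOC_Os03g54100 (distance 0.0881, with 88.1 and 86.8 TPM in OE5 and 146 and 166 TPM in GL) and for OsbZIP48 it was LOC_Os10g02210 (distance 0.0556, log2 fold change -1.30). The second nearest to OsbZIP48 was LOC_Os10g34884 (distance 0.0585, log2 fold change -1.22). The paper names it RIPER7, on its list of genes changed in both expression and CHG methylation. All of these loci were called by edgeR. No source used here pairs the other identifiers with gene names. A likeness over 4 libraries mostly restates a similar difference between the genotypes.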

How the data were processed

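RNA-seq was performed on leaves of OE5 and GL (2 libraries each). Per the labels and the methods, the authors trimmed reads with fastp 0.20.1, mapped them to Nipponbare (MSU v7.0) with Hisat2 2.1.0 and counted them with TPMCalculator. Deposited counts are raw reads per locus. The deposited TPM values are scaled by the authors to gene length and library total. Of the names used, OsRUP is paired with its locus in the paper, and the others were taken from a working list of members. None of the identifiers (0) matched the RefSeq table, so no sequence or coordinate is shown, and a planned list of other light signalling genes and a motif search were not run.

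The test was the quasi-likelihood F test of edgeR 4.0.16 in R 4.3.3 (TMM, robust estimateDisp and glmQLFit, prior count 2). It was also run on counts simulated from its own fitted dispersion trend, which cannot check that trend against these libraries. Loci were kept where TPM summed over replicates reached 2 in OE5 or GL. The standard error (SE) is the size of the log2 fold change divided by √F. DESeq2 1.42.0, limma 3.58.1 (pseudocounts 1 and 0.1), other normalizations, filters and thresholds, leaving out single libraries and a replicate block were alternatives. The members and lists were chosen with earlier results of these data known. The named loci are the members and the 2 nearest to each called member, of which 1 is given for OsPIL11. Replicate counts varied more than sampling allows (chi-square over its degrees of freedom was 64.8 in OE5 and 213 in GL). Whether they are separate plants is not stated, so p-values measure the spread between these libraries. The bisulfite libraries were not analysed here.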

Additional observations from a re-analysis of the deposited data

How the results depend on the processing

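The 3 calls among the 9 genes were unchanged with RLE or upper-quartile normalization, filterByExpr, no filter and the TPM filter in both genotypes. The calls also held with DESeq2, the replicate block and no fold limit, and with halved counts. Halving was chosen after seeing the data, to allow for read pairs counted more than once. With either limma-trend fit OsbZIP48 was lost, and with a fold change over 2 OsPIL11 was lost. From 1 to 3 genes were called with 1 library left out, where the lone library of a genotype is assumed to vary like the others. All tested loci called numbered 653, 1207 with no filter, 344 with a fold change over 2, and from 194 to 1270 with 1 library left out. Over 126 refitted values of the 9 genes, 115 kept direction and call, 5 lost the call and 6 changed sign, all in uncalled genes near 0: OsbZIP18 (0.066 and 0.074 with limma-trend and pseudocounts of 1 and 0.1), OsPIL14 (from -0.032 to 0.075 with 1 library left out) and COP1/PPS (from -0.10 to 0.21 with 1 library left out). The log2 difference of the summed PIL level was -0.21 in TPM and -0.39 as TMM-normalized CPM. With limma-trend on log2(TPM + 1), 83.1% of calls were higher in OE5, against 62.3% with edgeR.

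With the replicate block 708 loci and the same number of members, 3, were called. The numbers are not stated to pair libraries, and across loci the correlation of deviations between libraries of the same number was 0.126 by Pearson and -0.124 by Spearman. OsbZIP48, OsPIL16 and OsbZIP01 have fewer than 200 counts in each library.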
